A study of Mus musculus with 10 samples.

Results

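The cytosolic ribosomal protein genes were followed through the conversion of mouse embryonic stem cells (ESCs) into primordial germ cell-like cells (PGCLCs). They were taken by symbol: Rpl or Rps followed by a number and optional letters, plus Rpsa, Rplp0, Rplp1 and Rplp2, with a mean of at least 1 TPM, the transcript abundance scaled for gene length and to a total of 1000000 per library, over the 10 libraries. This gave 86 genes of the 36066 in the table, 53 of the large (60S) and 33 of the small (40S) subunit. Of these, 82 were annotated as protein coding and 4, Rps4l, Rpl37rt, Rpl6l and Rpl32l, as pseudogenes. The symbol rule leaves out some genes of the cytosolic ribosome whose symbols differ, such as Fau, Rps3a1 and Rack1, which were kept as a separate list.

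The 10 RNA-seq libraries formed 5 groups of 2, all from C57BL6 mice. ESCs came from fertilized female embryos, and parthenogenetic ESCs (pESCs) from activated oocytes, so that all their chromosomes are maternal. Both were lines on an Actin-GFP background grown on feeder cells, and each origin is represented by its own cells, so that a line and its origin cannot be told apart. ESC-PGCLCs and pESC-PGCLCs were induced from the 2 kinds of stem cell for 4 days with 500 ng/ml BMP4, together with SCF, EGF and LIF, and sorted for the surface markers CD61 and SSEA1. Primordial germ cells (PGCs) were isolated from embryonic gonads with the same surface markers, and their embryonic day is not given in the labels. The study's methods call its replicates biological, while no label says which libraries of a group came from separate cultures or animals, so the p-values measure the spread between these libraries.

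Read totals recovered from the TPM ran from 6779848 to 18572926 per library, and 3 reads on a gene of median exon length equalled 0.116 to 0.338 TPM. The labelled cell types differed in the sums of their markers, but not every gene followed. The summed TPM of 8 pluripotency genes was 667 to 1082 in the 4 stem cell libraries and 137 to 222 in the 6 PGCLC and PGC libraries. That of 10 germ cell genes was 408 to 932 and 5660 to 8000. Nanog alone had 403 to 674 TPM in stem cells. From ESCs to ESC-PGCLCs, 7 pluripotency genes were called lower and 1 higher, and from pESCs to pESC-PGCLCs 6 and 0. The 1 was Sox2, at 32.7 and 44.6 TPM in ESCs and 97.3 and 110 in ESC-PGCLCs. Pou5f1 was at 0.374 and 0 TPM in ESC-PGCLCs. Of the germ cell genes, 9 and 8 were called higher on these routes and 0 lower. The first pESC library stood apart: 78 of the 86 ribosomal protein genes were higher in it than in the second, with a median log2 difference of 0.31, and values without it are given where a call or a direction depended on it. Globin and other erythroid genes, of which 9 of 10 listed were in the table, summed to 0.109 to 4.58 TPM in stem cells, 492 to 562 in ESC-PGCLCs, 2902 to 3439 in pESC-PGCLCs and 1989 to 2200 in PGCs. Of the 9 erythroid genes, 7 were called higher in ESC-PGCLCs than in ESCs and 7 in pESC-PGCLCs than in pESCs, and none was at 0 in both libraries of a PGCLC or PGC group. Gonadal somatic markers summed to 7.09 to 9.26 TPM in stem cells and 26.3 to 131 in PGCLCs and PGCs. Those for feeder fibroblasts stayed at or below 11.6 TPM in every library. Mitochondrially encoded genes took 13.2 to 16.9% of TPM in stem cells and 18.8 to 21.9% in PGCLCs and PGCs. The part of these genes and cells in the results below was not tested.

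A ribosome reads messenger RNA on its small subunit and joins amino acids on its large subunit, and most of its proteins are present once per ribosome. Their messages are among the most abundant in growing cells. Many begin with a terminal oligopyrimidine (TOP) motif, a C at the first transcribed base followed by a run of C or T, through which mTOR signaling controls their translation. They are also the classic source of processed pseudogenes, intronless copies made by reverse transcription, so that short reads of a ribosomal protein message can often be placed at more than 1 site in the genome.

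The starts of 6 genes are shown because they carry, or lack, the motif that is typical of the class. Each is 30 bases of the RefSeq promoter table (GRCm38.p6), 10 before and 20 from the annotated start, on the strand of the gene and 5′ to 3′, with the pyrimidine run at the first transcribed base in capitals. The windows lie at chr4:86857348-86857377 for Rps6, chr17:33955646-33955675 for Rps18, chr3:90213629-90213658 for Rps27, chr11:114668570-114668599 for Rpl38, chr7:141447641-141447670 for Rplp2 and chr16:10170218-10170247 for Rpl39l.
Rps6: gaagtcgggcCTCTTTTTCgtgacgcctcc
Rps18: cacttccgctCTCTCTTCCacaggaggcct
Rps27: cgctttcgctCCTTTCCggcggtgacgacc
Rpl38: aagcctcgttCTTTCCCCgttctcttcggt
Rplp2: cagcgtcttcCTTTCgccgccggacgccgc
Rpl39l: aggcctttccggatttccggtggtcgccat
A promoter was found for 64 of the 86 genes. A C followed by at least 4 C or T stood exactly at the annotated start in 15 of them, 23.4%, against 3.01% of 27025 genes with a promoter. Within 5 bases of the start it was found in 30 of them, 46.9%, against 21.2% of all genes. Rpl39l had no such run in either place, which says only that these letters are not in this window.

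The second set of sequences shows why reads of these genes are hard to place. Each pair gives 30 bases of the coding sequence of a ribosomal protein gene and of a copy elsewhere in the genome (GENCODE M21, GRCm38), with the differing base in capitals. Positions are counted from 1 at the A of the start codon. Rps18 lies at chr17:33951999-33956001 in 5 exons and its copy Gm11361 at chr13:28257528-28258134, and they differed at 3 of 456 coding bases (A171C is shown).
Rps18: caccaagagggctggAgaactcacggagga
Gm11361: caccaagagggctggCgaactcacggagga
Rpl26, at chr11:68901583-68906989, differed from Gm15772, at chr5:3236431-3236868, at 2 of 435 coding bases (C177T is shown).
Rpl26: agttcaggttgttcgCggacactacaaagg
Gm15772: agttcaggttgttcgTggacactacaaagg
Rpl34, at chr3:130726831-130730398, differed from Rpl34-ps1, at chr6:71124610-71124963, at 2 of 351 coding bases (T132C is shown).
Rpl34: gaaagcacctaaatcTgcatgtggcgtgtg
Rpl34-ps1: gaaagcacctaaatcCgcatgtggcgtgtg
Rpl29, at chr9:106429454-106431568, differed from Gm13841, at chr5:115801677-115802159, at 3 of 480 coding bases (C72A is shown).
Rpl29: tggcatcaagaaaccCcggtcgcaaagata
Gm13841: tggcatcaagaaaccAcggtcgcaaagata
The longest stretch without a difference was 165 bases in the Rps18 pair, 176 in the Rpl26 pair, 185 in the Rpl34 pair and 227 in the Rpl29 pair. A read that falls inside such a stretch cannot be assigned to the gene or the copy by its sequence. Across the 86 genes, a median of 40.6% of all 100-base stretches of the main transcript also occurred in a transcript of another gene, on either strand. Genes that overlap the same locus were counted too, so this is not the share found at another site. These 4 copies were chosen after their values were seen.

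The ribosomal protein genes took 7.11 to 11.8% of all TPM. Their summed TPM was 89966 and 94331 in the ESC libraries, 117830 and 95290 in pESCs, 79429 and 85630 in ESC-PGCLCs, 80183 and 71062 in pESC-PGCLCs, and 91949 and 80299 in PGCs. The 4 PGCLC libraries lay below the 4 stem cell libraries, and the PGC libraries overlapped both. With the reads of copies added, or without mitochondrially encoded and hemoglobin genes in the total, the second ESC-PGCLC library lay above the first ESC library (97525 against 96705 TPM, and 108777 against 106673), so that the PGCLC and stem cell libraries then overlapped. The log2 ratio of the group means was -0.16 for ESC-PGCLCs against ESCs (SD over the library pairs 0.0740) and -0.49 for pESC-PGCLCs against pESCs (SD 0.203). Without the first pESC library the second ratio was -0.33. The first ratio was -0.061 when mitochondrially encoded and hemoglobin genes were left out of the total and -0.078 with the reads of copies added. The messages of small subunit proteins summed to 0.82 to 1.04 times those of large subunit proteins, and both libraries of ESC-PGCLCs, at 1.04 and 1.03, lay above the rest.

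**Figure D1:**
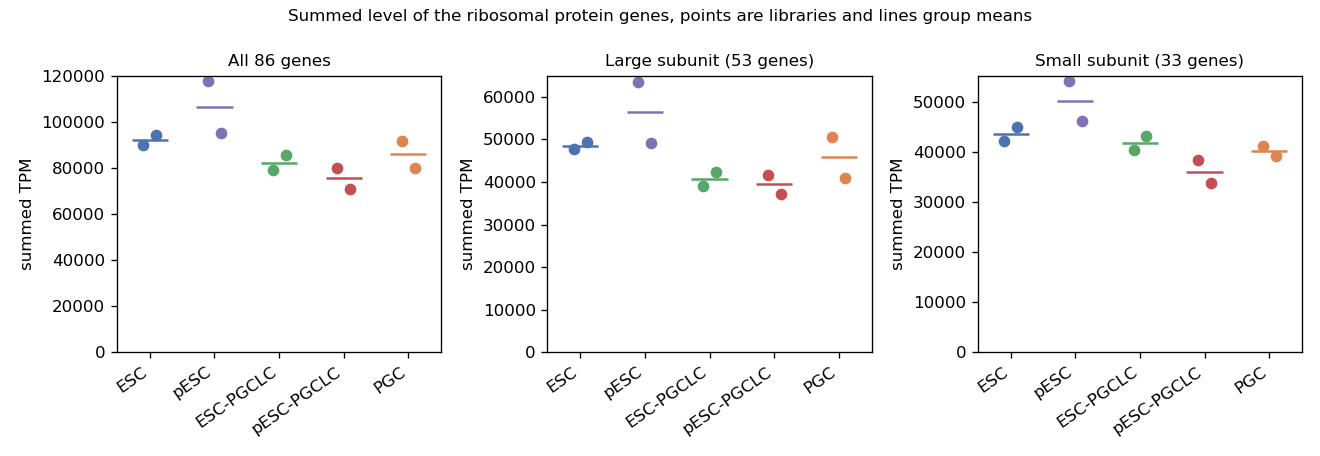
Summed TPM (vertical axis from 0) of all 86 ribosomal protein genes, of the 53 large subunit genes and of the 33 small subunit genes in the 5 groups, with 1 point per library and a line at each group mean. The highest total, 117830 TPM, was the first pESC library, and the lowest, 71062 TPM, was the second pESC-PGCLC library.

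Levels differed widely among the genes, although their proteins are used in near equal amounts. The median gene had a mean of 754 TPM, 82 genes had more than 100 TPM and 35 more than 1000. The 6 highest, among them Rps27l, Rps29, Rplp1, Rps27 and Rps14, held 26.2% of the total. Rps29, Rps27 and Rps14 encode core proteins of the small subunit. Rps14 ran from 2295 to 2968 TPM over the 10 libraries and was called in no comparison. The 6 lowest were Rpl3l, Rpl32l, Rpl10l, Rpl6l, Rpl29 and Rpl28. Rpl3l, the striated muscle paralog of Rpl3, had 0.449 to 1.68 TPM, and 84 genes exceeded 1 TPM in every library, all but it and Rpl32l. TPM divides by the length of all annotated exons of a gene, which for many of these genes is far longer than the main message, so the order of levels between genes also depends on the annotation.

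Each gene was compared between groups with limma on log2(TPM + 1), and is named as higher or lower only at a Benjamini-Hochberg adjusted p under 0.05 over all 27259 genes tested and a change of at least 2-fold. Between ESCs and pESCs no ribosomal protein gene passed, higher or lower, against 0.165% of all genes higher and 0.616% lower in pESCs. By limma 16 of the 86 had an unadjusted p under 0.05 (17.7% of all genes), of which 2 differed at least 2-fold (2.77% of all genes), and the lowest adjusted p was 0.0725, for Rpsa, a small subunit protein also known as the laminin receptor. Rpsa was at 505 and 491 TPM in ESCs and 323 and 353 in pESCs. The median log2 difference of the 86 genes was 0.15, against -0.06 for all genes, and turned to -0.05 without the first pESC library. The direction thus rested on 1 library. Rpl36al, the autosomal paralog of the X-linked Rpl36a, had 757 and 955 TPM in ESCs but 2948 and 1210 in the pESC libraries.

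From ESCs to ESC-PGCLCs, 2 of the 86 genes were higher (15.3% of all genes) and 18 were lower (14.5% of all genes). The genes that fell most included the stalk protein Rplp0, the entry channel protein Rps2, and Rpl29, Rpl21, Rps18 and Rpl34, whereas Rpl39l and Rps27l rose. The median log2 change of the 86 genes was -0.30, against 0.05 for all genes. From pESCs to pESC-PGCLCs, 2 were higher (20.8% of all genes) and 26 lower (6.80% of all genes), with a median of -0.37 against 0.22 for all genes. With each library centered on its median gene, 2 were higher and 17 lower from ESCs, and 1 higher and 44 lower from pESCs. The medians were then -0.28 and -1.10, against 0.06 and -0.51 for all genes. No share of all genes is given for the centered counts, and the results that follow are without centering. Without the first pESC library 18 were called and the median was -0.18. The same 10 genes were lower on both routes, Rpl21, Rpl29, Rpl32, Rpl34, Rpl41, Rplp0, Rps13, Rps18, Rps4l and Rps7, 1 gene, Rpl39l, was higher on both, and none was called in opposite directions. No share of all genes is given for calls on both routes, so these counts cannot be set against it. Of the 10, 5 were lower on both routes with the reads of copies added (Rpl21, Rpl29, Rpl32, Rpl41 and Rps4l), and 5 without the first pESC library (Rpl21, Rpl29, Rpl34, Rps18 and Rps4l). No copy of Rpl32 was in the table and none was sought for Rps4l, so adding reads could not change their values. Without that library the changes from pESCs to pESC-PGCLCs were -0.75 for Rpl32, -0.99 for Rps13, -0.87 for Rpl41 and -0.91 for Rps7.

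**Figure D2:**
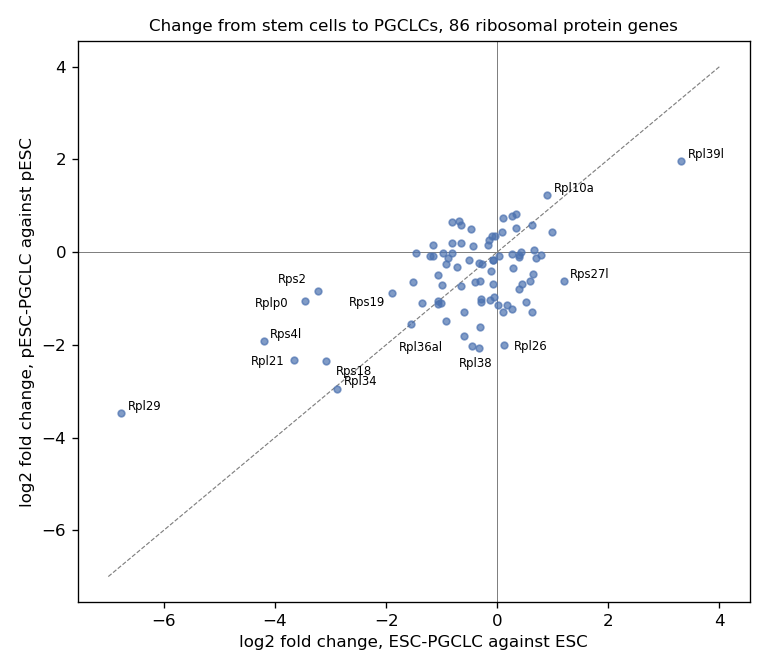
Log2 fold change of each of the 86 ribosomal protein genes (points) from ESCs to ESC-PGCLCs (horizontal axis) and from pESCs to pESC-PGCLCs (vertical axis), with a dashed line where both are equal. Rpl29, at -6.77 and -3.47, lies farthest toward the lower left and Rpl39l, at 3.30 and 1.96, farthest toward the upper right.

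Rplp0 is the base of the P stalk, the arm of the large subunit that recruits translation factors and that carries Rplp1 and Rplp2. It had 2662 and 2450.0 TPM in ESCs, 2071 and 1726 in pESCs, 234 and 227 in ESC-PGCLCs, 892 and 938 in pESC-PGCLCs and 610.3 and 570.3 in PGCs. All PGCLC and PGC libraries lay below all stem cell libraries, and the replicates lay close to each other. The log2 change from ESCs to ESC-PGCLCs was -3.46 (SE 0.15, adjusted p = 2.85e-06) and that from pESCs to pESC-PGCLCs -1.05 (SE 0.15, adjusted p = 0.000713), which was -0.92 and under 2-fold without the first pESC library. With the reads of its copies added, the first change was -3.14 and the second -0.82, under 2-fold (adjusted p = 0.00259). Its partner Rplp1 stayed between 3252 and 4965 TPM in all 10 libraries and passed in no comparison, nor did Rplp2, at 245 to 578 TPM. Of the 3 stalk genes, Rplp0 alone was called.

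Rps2 and Rps3 line the channel through which messenger RNA enters the small subunit. Rps2 had 852 and 719.9 TPM in ESCs, 735 and 540.3 in pESCs, 78.1 and 88.2 in ESC-PGCLCs, 329 and 373 in pESC-PGCLCs and 235 and 194 in PGCs. Again the PGCLC and PGC libraries all lay below the stem cell libraries, with the lowest values in ESC-PGCLCs. With the reads of its copies added, the PGCLC and PGC libraries overlapped the stem cell libraries. The log2 change from ESCs to ESC-PGCLCs was -3.22 (SE 0.19, adjusted p = 1.03e-05), or -2.17 with the reads of its copies added. Rps3 had 528 and 511 TPM in ESCs and 278 and 285 in ESC-PGCLCs, a log2 change of -0.88 that was under 2-fold (adjusted p = 0.00212).

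Rps19, the small subunit protein mutated in Diamond-Blackfan anemia, had 523 and 506 TPM in ESCs, 704 and 431 in pESCs, 139.9 and 137 in ESC-PGCLCs, 334 and 270.0 in pESC-PGCLCs and 282 and 217 in PGCs. Its log2 change from ESCs to ESC-PGCLCs was -1.89 (SE 0.24, adjusted p = 0.000423). Rps4l, annotated here as a processed pseudogene related to the X-linked Rps4x, had 950.3 and 838 TPM in ESCs, 1269 and 523 in pESCs, 45.3 and 49.8 in ESC-PGCLCs, 215 and 216 in pESC-PGCLCs and 291 and 155 in PGCs. It fell by 4.20 on the log2 scale from ESCs to ESC-PGCLCs (SE 0.42, adjusted p = 0.000103) and by 1.92 from pESCs to pESC-PGCLCs (SE 0.42, adjusted p = 0.00643), where the change was -1.28 (adjusted p = 0.0253) without the first pESC library. Of the summed TPM of Rps4l and Rps4x, Rps4l made 29.4 to 44.7% in stem cells and 2.70 to 11.1% in PGCLCs and PGCs. Rps4x itself, at 1255 to 1568 TPM in stem cells and 1631 to 2608 TPM in PGCLCs and PGCs, passed in no comparison.

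A further set was called lower from pESCs to pESC-PGCLCs and not from ESCs to ESC-PGCLCs. Rpl38, known for its role in translating Hox messages, had 2496 and 2750.2 TPM in ESCs, 4547 and 4148 in pESCs, 1911 and 2253 in ESC-PGCLCs, 1098 and 962 in pESC-PGCLCs and 1992 and 1354 in PGCs. The pESC libraries were the highest and the pESC-PGCLC libraries the lowest, and the log2 change between them was -2.08 (SE 0.21, adjusted p = 0.000164). Rps29 went from 6956 and 6595 TPM in pESCs to 2145 and 1751 in pESC-PGCLCs, a log2 change of -1.80 (SE 0.18, adjusted p = 0.000156). Rpl39, an X-linked gene whose small protein lines the exit tunnel of the large subunit, went from 1701 and 1764 TPM to 780.1 and 635, a log2 change of -1.30 (SE 0.18, adjusted p = 0.000738). It had 962 and 1239 TPM in ESCs and 1604 and 1754 in ESC-PGCLCs, and was not called there. Among the other X-linked genes, Rpl36a was lower in pESC-PGCLCs than pESCs by 1.23 on the log2 scale (adjusted p = 0.0324), which became -0.65 (adjusted p = 0.172) without the first pESC library. Rpl10, whose protein completes the peptidyl transferase center, ran from 528 to 942 TPM and passed nowhere.

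Rpl39l, an autosomal paralog of Rpl39 known from male germ cells, was the one gene higher on both routes. It had 25.9 and 31.1 TPM in ESCs, 50.9 and 44.1 in pESCs, 301 and 278 in ESC-PGCLCs, 206 and 172 in pESC-PGCLCs and 252 and 212 in PGCs. No PGCLC or PGC library came near a stem cell library. The log2 change was 3.30 from ESCs to ESC-PGCLCs (SE 0.17, adjusted p = 5.02e-06) and 1.96 from pESCs to pESC-PGCLCs (SE 0.17, adjusted p = 6.87e-05). No copy of Rpl39l was found in the table. Rpl39l made 2.44 to 2.91% of the summed TPM of Rpl39l and Rpl39 in stem cells and 13.7 to 21.3% in PGCLCs and PGCs. Rps27l, a paralog of Rps27 induced by p53, had 3359.8 and 3844 TPM in ESCs and 7982 and 8494 in ESC-PGCLCs, a log2 change of 1.20 (SE 0.18, adjusted p = 0.000868) that was 0.70 and under 2-fold after quantile normalization, but 5024 and 4957 in pESCs and 3493 and 2977 in pESC-PGCLCs. Rpl10a, a large subunit protein present on only some ribosomes in ESCs, had 117 and 105 TPM in pESCs and 262 and 261 in pESC-PGCLCs (log2 change 1.23, SE 0.12, adjusted p = 0.00014). With each library centered on its median gene this change was 0.50 and under 2-fold. Rpl10l, an intronless paralog of Rpl10 known from the testis, had 31.2 to 166 TPM, the highest in the first pESC library, and passed in no comparison. Rps27rt, a further relative of Rps27, was lower in pESC-PGCLCs than in pESCs (log2 change -1.62, adjusted p = 0.00148), and Rpl36al fell there by 2.04 (adjusted p = 0.00681), a change of -1.39 (adjusted p = 0.0347) without the first pESC library.

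**Figure D3:**
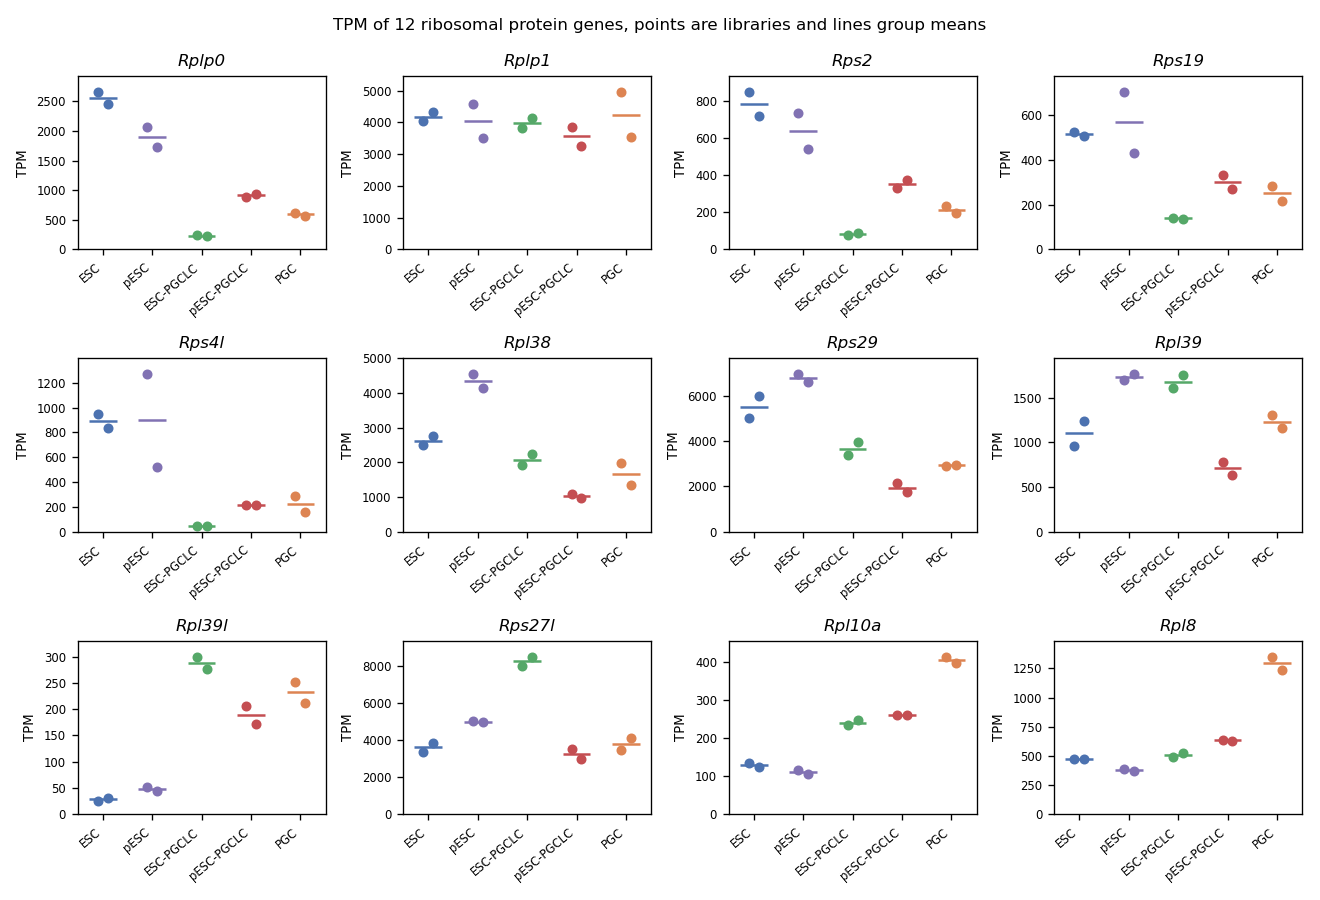
TPM (vertical axes from 0) of 12 ribosomal protein genes in the 5 groups, with 1 point per library and a line at each group mean. Rplp0, Rps2, Rps19 and Rps4l are lowest in ESC-PGCLCs, Rpl39l is higher in all PGCLC and PGC libraries than in stem cells, and Rplp1 stays between 3252 and 4965 TPM.

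Rpl5 and Rpl11, which bind 5S rRNA and hold back Mdm2 when ribosome assembly fails, ran from 899.9 to 1224 TPM and from 405 to 579 TPM and passed in no comparison. Rps23, beside the decoding center, had 1444 to 2510.2 TPM and passed nowhere. Rps15, at the head of the small subunit, was higher in pESC-PGCLCs than in ESC-PGCLCs by 1.02 on the log2 scale (adjusted p = 0.02), a call that was lost when any 1 of these 4 libraries was left out. Rpl4, which forms part of the exit tunnel, was at 1778 and 1685 TPM in ESCs and 743 and 814 in ESC-PGCLCs (log2 change -1.15, SE 0.16, adjusted p = 0.000583). Rpl17, also at the tunnel, had 1229 to 2148 TPM and was not called. Rpl3, at the peptidyl transferase center, had 552 and 510.2 TPM in ESCs and 266 and 270.4 in ESC-PGCLCs, a log2 change of -0.98 (adjusted p = 0.0012), just under 2-fold. Rps6, the substrate of S6 kinase and a gene with a TOP run at its start, was at 1233 to 1311 TPM in the stem cell libraries and at 1591 to 2216 in PGCLCs and PGCs without overlap, but no change reached 2-fold. Rps27a, made as a fusion with ubiquitin, fell from 1927 and 1583 TPM in pESCs to 932 and 809 in pESC-PGCLCs (log2 change -1.01, adjusted p = 0.00358), a change of -0.86 without the first pESC library.

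Over all libraries, 21 of the 86 genes were lower in each of the 6 PGCLC and PGC libraries than in each of the 4 stem cell libraries (10.5% of all genes), and 8 were higher (27.3% of all genes). The 8 were Rpl10a, Rpl12, Rpl23a, Rpl39l, Rpl7, Rpl8, Rps4x and Rps6. With the reads of copies added, 14 were lower and 9 higher. The shares of all genes hold for the values as deposited and none is given with copies added, so these counts cannot be set against one. Of the 86 genes, 44 were called in at least 1 of the 6 pairwise comparisons (44.6% of all genes).

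A read counted on a copy of a gene is not counted on the gene, so the reads of genes and copies were set side by side. A copy was any other locus that shares a 100-base stretch with the main transcript. It also had to be a pseudogene or be made up of such stretches to at least 20%. Copies were sought for 81 of the 86 genes, and 71 had 1 or more in the table, 427 copies in all. None were sought for the other 5, the 4 pseudogenes and Rps27rt, which kept their deposited values when reads of copies were added. Over these genes the median share of reads on the gene itself was 89.4 to 92.9% in stem cell libraries and 85.8 to 90.3% in PGCLC and PGC libraries. The share was higher in every stem cell library than in every PGCLC and PGC library for 15 genes and lower for 2, Rpl14 and Rps10. For 10 genes the gap was at least 10 percentage points, Rpl21, Rpl26, Rpl29, Rpl3, Rpl34, Rpl35a, Rplp0, Rps18, Rps2 and Rps7.

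Of the reads of Rps18 and its copies, 95.7 to 97.4% were on Rps18 in stem cells and 14.4 to 23.6% in PGCLCs and PGCs. For Rpl34 the share was 87.4 to 90.7% and 10.9 to 19.1%, and for Rps2 92.1 to 95.2% and 43.5 to 48.2%. These 3 genes held only a minority of the reads in PGCLCs and PGCs. For Rpl26 it was 94.6 to 95.5% in stem cells, 35.3 and 34.5% in ESC-PGCLCs, 11.6 and 13.2% in pESC-PGCLCs and 7.89 and 8.44% in PGCs. For Rpl29 it was 89.1 to 90.7% in stem cells, 2.48 and 2.99% in ESC-PGCLCs, 12.5 and 25.6% in pESC-PGCLCs and 2.05 and 2.87% in PGCs. Rplp0 kept 67.4 to 84.1% in PGCLCs and PGCs, after 96.3 to 97.4% in stem cells. These genes are among the 10 with a gap of at least 10 percentage points, so their separation of stem cells from PGCLCs and PGCs is part of that criterion. Of all 71 genes with a copy in the table, 15 had a higher share in every stem cell library.

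**Figure D4:**
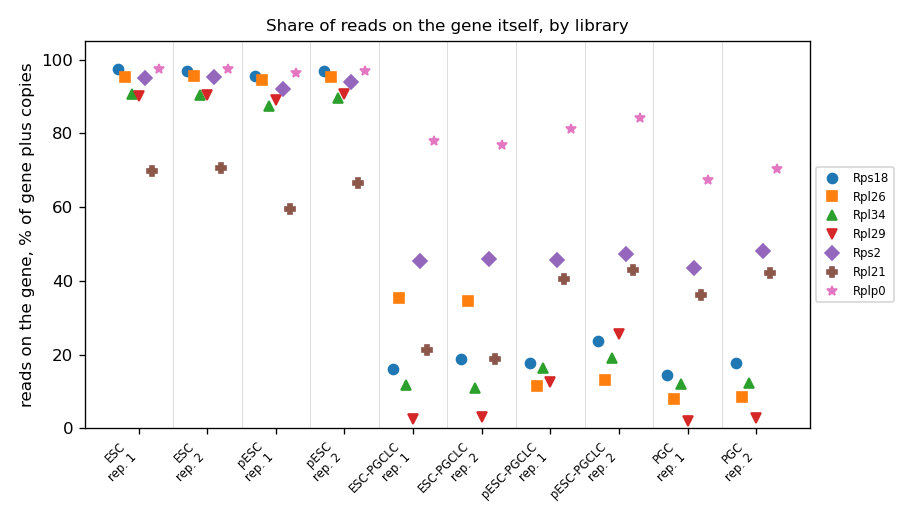
Percent of the reads of a gene and its copies that were counted on the gene itself (vertical axis) in each of the 10 libraries, for 7 ribosomal protein genes (marker shapes, offset sideways within a library). All 7 shares are higher in the 4 stem cell libraries than in the 6 PGCLC and PGC libraries, and Rps18 falls from at least 95.7% to at most 23.6%. The 7 genes are among the 10 with a gap of at least 10 percentage points, so this separation is part of that criterion.

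Single copies, chosen by their reads in PGCLC and PGC libraries, had more reads there than in stem cells, among them those whose sequences are shown above. Rpl26, Rpl34, Rps18 and Rpl29 had 4, 5, 5 and 20 copies in the table, and a single copy of each is given. Gm15772, a copy of Rpl26, had 36.3 to 57.6 rpm (reads scaled to a total of 1000000) in stem cells and 1774 to 2401 in PGCLCs and PGCs. Rpl34-ps1 had 82.3 to 167 and 405 to 1054, and Gm11361, a copy of Rps18 annotated as protein coding, 24.2 to 60.1 and 342 to 741. Gm13841, a copy of Rpl29, had 3.02 to 6.0 and 22.3 to 87.8. None of these ranges overlapped. Gm10163, a copy of Rpl21, in contrast had 46.5 to 85.6 rpm in stem cells and 61.2 to 160 in PGCLCs and PGCs, which overlapped. Whether the copies were transcribed or received reads of the gene cannot be told apart in these values.

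With the reads of copies added to each gene, a setting chosen after the data were seen, some of these genes were no longer called and others were. Rps18 had 834 and 711 TPM in ESCs and 81.9 and 98.8 in ESC-PGCLCs, a log2 change of -3.08 (SE 0.26, adjusted p = 4.67e-05) that became -0.62 (adjusted p = 0.119). Rpl34 had 592 and 650.4 TPM in ESCs and 80.3 and 86.1 in ESC-PGCLCs, a change of -2.89 (SE 0.17, adjusted p = 8.5e-06) that became 0.11 (adjusted p = 0.67). Rpl29, a small basic protein of the large subunit, had 393 and 356 TPM in ESCs and 2.24 and 2.62 in ESC-PGCLCs. Its change of -6.77 (SE 0.28, adjusted p = 2.8e-06) became -2.21 (adjusted p = 0.000159) and was still past the threshold. Rpl26, a large subunit protein that also binds p53 messenger RNA, had 1299 and 1348 TPM in pESCs and 326 and 337 in pESC-PGCLCs. Its change of -1.99 (SE 0.14, adjusted p = 3.56e-05) became 0.95, the opposite sign and under 2-fold (adjusted p = 0.00133), and in ESC-PGCLCs against ESCs it was called higher, at 1.57 (adjusted p = 8.58e-05). Over the 86 genes, 4 were then higher (15.2% of all genes) and 14 lower (14.7%) from ESCs to ESC-PGCLCs, and 2 higher (21.1%) and 21 lower (6.72%) from pESCs to pESC-PGCLCs.

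**Figure D5:**
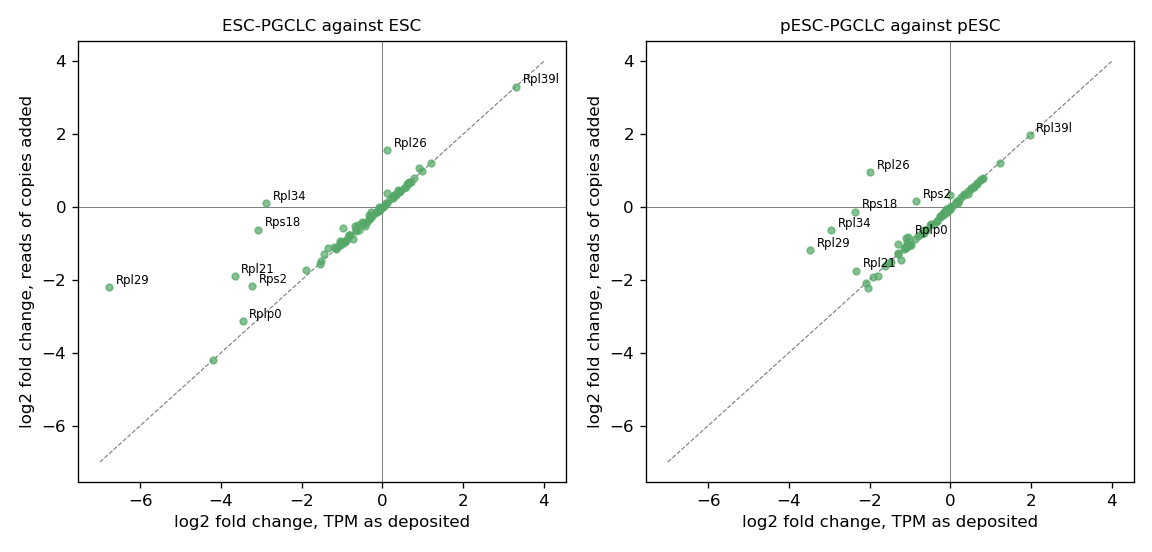
Log2 fold change of the 86 ribosomal protein genes from ESCs to ESC-PGCLCs (left) and from pESCs to pESC-PGCLCs (right), with TPM as deposited on the horizontal axis and with the reads of copies added on the vertical axis, and a dashed line where both are equal. Most genes lie on the line, among them Rpl39l, while Rpl29, Rpl34, Rps18 and Rpl26 lie above it.

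The PGCLCs of both origins were then compared. In pESC-PGCLCs 11 of the 86 genes were higher than in ESC-PGCLCs (10.3% of all genes) and 6 lower (3.08% of all genes), or 6 and 19 with each library centered on its median gene. The median log2 difference was 0.12, as for all genes, and both medians turned to -0.29 with centering. The percentages hold for the values as deposited, and no share of all genes is given for the centered counts here or below. Rplp0 and Rps2, given above, were higher in pESC-PGCLCs by 1.98 (SE 0.15, adjusted p = 0.000165) and 2.06 (SE 0.19, adjusted p = 0.000384). Rpl29, at 2.24 and 2.62 TPM in ESC-PGCLCs and 18.9 and 37.1 in pESC-PGCLCs, was higher by 3.01 (SE 0.28, adjusted p = 0.000381), but by 0.73 (adjusted p = 0.0613) with the reads of copies added. Rps27l, with 7982 and 8494 TPM against 3493 and 2977, was lower by 1.35 (SE 0.18, adjusted p = 0.00145), and Rpl39, with 1604 and 1754 against 780.1 and 635, by 1.25 (SE 0.18, adjusted p = 0.00222). Rps21, a small protein of the small subunit, had 1391 and 1584 TPM against 686 and 619.6 (log2 difference -1.19, adjusted p = 0.00209). Rpl35a, another gene mutated in Diamond-Blackfan anemia, had 397 and 447 TPM against 214 and 196 (log2 difference -1.04, adjusted p = 0.0019), and its call was lost without the second ESC-PGCLC or the second pESC-PGCLC library.

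Whether the change from stem cells to PGCLCs differed between the origins was tested directly as an interaction. It was larger, that is higher or less negative, on the parthenogenetic route for 12 of the 86 genes (15.5% of all genes) and smaller for 14 (3.53% of all genes), or 3 and 33 with centering. Centering moved the median of all genes in this test from 0.21 to -0.54. Rpl29 (3.30), Rplp0 (2.42), Rps2 (2.38) and Rps4l (2.29) had the most positive log2 differences between the routes, and Rpl26 (-2.11), Rpl39 (-1.92), Rps27l (-1.83) and Rpl38 (-1.74) the most negative. With the reads of copies added, Rpl29 was at 1.02 (adjusted p = 0.066) and Rpl26 at -0.62 (adjusted p = 0.0737), neither of them called, and 8 genes were on the positive side (15.8% of all genes) and 13 on the negative side (3.39%). Both routes entered this test through libraries that other comparisons also used, so the differences above are not independent of each other.

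PGCs differed from ESC-PGCLCs at 12 higher (12% of all genes) and 2 lower genes (1.88% of all genes), or 3 and 10 with centering, which also turned the median log2 difference from 0.31 to -0.29. The median of all genes moved from 0.27 to -0.34. Against pESC-PGCLCs, PGCs had 2 genes higher (2.07% of all genes) and 1 lower (1.60% of all genes), or 0 and 2 with centering and 2 (1.94% of all genes) and 0 (1.61%) with the reads of copies added. Both comparisons use the same PGC libraries, and the difference between their counts was not tested. The 3 calls against pESC-PGCLCs were lost without the second pESC-PGCLC or the first PGC library. Rpl8, a large subunit protein near the peptidyl transferase center, had 469.8 and 470.2 TPM in ESCs, 384 and 373 in pESCs, 486 and 526 in ESC-PGCLCs, 638 and 629 in pESC-PGCLCs and 1352 and 1233 in PGCs. The PGC libraries lay above all others, by 1.35 on the log2 scale against ESC-PGCLCs (SE 0.13, adjusted p = 0.00107) and by 1.03 against pESC-PGCLCs (SE 0.13, adjusted p = 0.0125), or 0.74 and 0.83, both under 2-fold, with centering. Rps12, a small subunit protein, had 119 and 121 TPM in pESC-PGCLCs and 273 and 221 in PGCs (log2 difference 1.03, SE 0.16, adjusted p = 0.0199). Rpl28, a large subunit protein, had 66.7 and 74.8 TPM in ESC-PGCLCs and 361 and 184 in PGCs (log2 difference 1.85, SE 0.34, adjusted p = 0.0063). Rpl29 was lower in PGCs than in pESC-PGCLCs by 2.10 (SE 0.28, adjusted p = 0.0134), but 0.59 higher, and not past the threshold, with the reads of copies added.

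Other genes of the ribosome and its synthesis are given for comparison, from lists chosen by function. Their counts stand beside 14.5% of all genes lower and 15.3% higher from ESCs to ESC-PGCLCs, and 6.80% lower and 20.8% higher from pESCs to pESC-PGCLCs. From ESCs to ESC-PGCLCs, 13 of 30 genes of ribosome biogenesis were lower and 1 higher, with Nop56, a core protein of box C/D snoRNPs, at -3.14 on the log2 scale (adjusted p = 8.44e-06). From pESCs to pESC-PGCLCs 4 were lower and 2 higher. Of 20 RNA polymerase I genes, 6 were lower and 1 higher on the first route and 1 lower and 2 higher on the second. The mitochondrial ribosomal proteins are a separate set of nuclear genes for the ribosome inside mitochondria. In the values as deposited, their calls went different ways on the routes. From ESCs to ESC-PGCLCs 30 of 78 were lower and 7 higher, whereas from pESCs to pESC-PGCLCs 23 were higher and 0 lower. Tested directly by limma, 50 of the 78 were on the positive side of the difference between the routes (15.5% of all genes) and 2 on the negative side (3.53%). Centering moved the median of all genes from 0.22 to -0.51 on the second route and from 0.21 to -0.54 in the interaction. On the first route it went from 0.05 to 0.06. Counts of these lists with centering are not given, so whether their directions depend on the scaling was not tested. Of 16 translation factors, 4 were lower and 2 higher on the first route and 1 lower and 5 higher on the second, among them Eef2, the elongation factor that moves the ribosome along its message (log2 change 1.86 on the second route, adjusted p = 0.000463). Of 13 growth regulators, 4 were higher and 1 lower on the first route and 6 higher and 0 lower on the second. Mtor was higher on both routes, by 1.45 (adjusted p = 0.00013) and 2.12 (adjusted p = 3.22e-05). Eif4ebp1, a target of mTOR that restrains cap-dependent translation, fell by 3.78 on the first route (adjusted p = 3.15e-06) and was at -0.90, under 2-fold, on the second (adjusted p = 0.00288). Of the ribosomal protein genes outside the symbol rule, Fau, Rps3a1 and Rack1 passed on neither route, and between the PGCLCs Fau was higher in pESC-PGCLCs by 1.20 (adjusted p = 0.00313).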

How the data were processed

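RNA was sequenced from 10 libraries. The authors deposited 1 table of TPM per gene, whose columns each sum to 1000000. Their processing notes name Bowtie2, HISAT2, RSEM, DESeq2 and R 3.4.2 without roles, and the methods give HISAT2 and featureCounts on mm10. How reads with several placements were counted is not given in the sources used here. TPM multiplied by exon length (GENCODE M21) gave whole reads within 0.02 for 95.0 to 95.5% of the nonzero values with lower read counts. Values with high read counts, many of the ribosomal protein genes among them, were not part of that check. These reads are the basis of the depths and of the copy shares, with no count model run.

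Genes with at least 0.1 TPM in 2 libraries (27259) were fitted with limma 3.58.1 (R 4.3.3) on log2(TPM + 1) with 5 group means and a mean-variance trend (5 residual and 2.81 prior degrees of freedom). The pseudocount understates changes of low genes. Summed TPM and medians were given without a test, and no sample was dropped or imputed. The test was checked on simulated data. Alternatives changed the pseudocount, filter, scaling, fold minimum, replicate block and libraries, and, chosen after the data were seen, added the reads of copies. Python 3.11.15 and Biopython 1.88 were used for sequences and copies.

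The genes and lists were chosen with earlier results of these data known. Named genes are the 6 highest and 6 lowest by mean TPM, the 5 with the largest called change each way per comparison whose libraries do not overlap, X-linked genes, paralogs with their parents, and genes of fixed functional roles. Results for some genes are not reported here. In bulk RNA, fewer cells of a type and less RNA per cell cannot be told apart.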

Additional observations from a re-analysis of the deposited data

Results flagged for a closer look

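The change from stem cells to PGCLCs differed between the 2 origins, by the interaction test in limma, for 26 of the 86 ribosomal protein genes. Of these, 12 were on the positive side (15.5% of all genes) and 14 on the negative side (3.53% of all genes). On the log2 scale, as the change from pESCs minus the change from ESCs, the difference of the genes reported here was 3.30 for Rpl29, 2.42 for Rplp0, 2.38 for Rps2, 2.29 for Rps4l, 1.45 for Rpl13, 1.35 for Rpsa, 1.33 for Rpl21, 1.30 for Rpl4, 1.09 for Rpl15 and 1.02 for Rpl6. It was -2.11 for Rpl26, -1.92 for Rpl39, -1.83 for Rps27l, -1.74 for Rpl38, -1.60 for Rps21, -1.39 for Rpl35a, -1.34 for Rpl39l, -1.32 for Rps28, -1.31 for Rps27rt, -1.22 for Rps29, -1.21 for Rpl37rt, -1.20 for Rpl37, -1.15 for Rpl22 and -1.12 for Rps15a. Leaving out 1 library at a time, the calls of Rpl13, Rpl15, Rpl21, Rpl22, Rpl37rt, Rpl6, Rps15a, Rps27rt, Rps28, Rps29 and Rps4l were lost at least 1 time, and those of the other genes named here held each time. With the reads of copies added, the calls of Rpl15, Rpl21, Rpl26, Rpl29 and Rpl6 were lost.

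Reads on 5 copies of ribosomal protein genes, which the gene comparisons do not use, were higher in PGCLC and PGC libraries than in stem cells. The median was 2052 rpm (reads scaled to a total of 1000000) against 42.1 for Gm15772, 592 against 102 for Rpl34-ps1, 405 against 25.9 for Gm11361, 124 against 5.53 for Rps2-ps13 and 37.7 against 4.17 for Gm13841. The copies were first taken by their reads in PGCLC and PGC libraries, and only those without overlap with stem cells are listed. Their direction was thus fixed by the choice. Gm10163, a copy of Rpl21, overlapped and is not listed, and 427 copies are in the table. The cause was not tested.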

How the results depend on the processing

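The number of genes called of the 86 was 0, 17, 20, 28, 14, 3 and 26 for pESC against ESC, pESC-PGCLC against ESC-PGCLC, ESC-PGCLC against ESC, pESC-PGCLC against pESC, PGC against ESC-PGCLC, PGC against pESC-PGCLC and the interaction. Without a fold minimum it was 40, 41, 45, 35 and 9 from the second to the sixth, since smaller changes then count. Centering on the median gene gave 45 for pESC-PGCLC against pESC, and quantile normalization gave 5 for PGC against pESC-PGCLC. No share of all genes is given under these scalings. Replicate numbers were shared by the groups, but deviations of same-numbered libraries correlated by -0.094 to 0.347 (mean 0.062, 10 pairs), so the numbers were not taken as pairs. With a replicate block the counts were 0, 18, 21, 29, 15, 3 and 28.

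Leaving out 1 library at a time gave counts of 0 to 3, 14 to 18, 18 to 20, 18 to 32, 8 to 19, 0 to 10 and 16 to 30. A lone sample is then assumed to vary like the other groups. The 3 were Rpl36al, Rpl10l and Rpl36a, without the second pESC library. The 18 for pESC-PGCLC against pESC was without the first pESC library, and the 8 without the first PGC library. For PGC against pESC-PGCLC the count was 0 without the second pESC-PGCLC or the first PGC library, 1 without the first pESC-PGCLC library and 10 without the second PGC library. The interaction count was 16 without the first ESC or the second pESC-PGCLC library and 17 without the second ESC-PGCLC library. For ESC-PGCLC against ESC the calls of Rpl32, Rpl41, Rps13 and Rps16 were each lost without 1 or more single libraries. The log2 ratio of summed TPM ran from 0.0484 to 0.355, -0.216 to -0.0416, -0.214 to -0.106, -0.640 to -0.334, -0.0395 to 0.156 and 0.0866 to 0.282 for the 6 pairs in the order above. For ESC-PGCLC against ESC it was -0.061 without mitochondrially encoded and hemoglobin genes and -0.0784 with the reads of copies added.

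Of the 34 calls of named genes, the pseudocount, filter and block changed none. Quantile normalization took 2 of Rps27l below the fold minimum, centering took 5 below the fold minimum, and adding the reads of copies took 6 below a threshold and turned Rpl29 in PGC against pESC-PGCLC to 0.591. Centering moved the median of all genes from 0.22 to -0.51 for pESC-PGCLC against pESC and from 0.27 to -0.34 for PGC against ESC-PGCLC. The called genes kept their sign under it in every comparison.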
